A study of Mus musculus with 6 samples.

Results

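The Ceacam genes described here are 6 members of the mouse carcinoembryonic antigen-related cell adhesion molecule family, Ceacam1, Ceacam2, Ceacam10, Ceacam12, Ceacam18 and Ceacam20. They were found by symbol among the 17256 genes of the deposited expression table, and all 6 had a row. The choice was made with the comparison below in view, so the differences of these genes between the groups are given as a description, without a test. The RNA came from antrum epithelium, which lines the lower stomach, of C57BL/6 mice in which atrophic gastritis had been induced with MNNG, an alkylating carcinogen, and a drug spelled Ranitine over 20 weeks. The PEEPA-P5 group, with 3 libraries, then received PEEPA-P5 by gavage for 2 weeks, and the vehicle group, with 3 libraries, received vehicle for 2 weeks. All 6 libraries therefore carry the MNNG and Ranitine exposure, and no untreated stomach was analysed here. PEEPA-P5 is known here only by its code name. Nothing in the labels says whether the libraries of a group are separate mice, so any p-value below measures the spread between libraries, which may be technical.

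Ceacam proteins belong to the immunoglobulin superfamily, and the family is named after a human tumour marker of the gut. Ceacam1 is a cell-surface glycoprotein of epithelial cells, endothelium and leukocytes that binds to itself between neighbouring cells. Its long cytoplasmic tail carries inhibitory tyrosine motifs that recruit the phosphatases encoded by Ptpn6 and Ptpn11, and in mice it is the receptor of mouse hepatitis virus. Ceacam2 is a near copy of Ceacam1 in the mouse genome, Ceacam10 is a secreted member known from mouse seminal vesicle, and Ceacam20 sits on the microvilli of intestinal epithelial cells, where the phosphatase encoded by Ptprh acts on it.

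Ceacam1, Ceacam2 and Ceacam10 are alike in sequence, which matters for how reads can be assigned to them. The first 90 coding bases of their longest annotated coding transcripts (GENCODE M21, chromosome 7) are shown to make the likeness visible, with capitals marking bases that differ from Ceacam1 at the same position, 3 in Ceacam2 and 5 in Ceacam10.
Ceacam1: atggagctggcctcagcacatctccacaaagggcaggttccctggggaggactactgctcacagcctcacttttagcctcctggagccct
Ceacam2: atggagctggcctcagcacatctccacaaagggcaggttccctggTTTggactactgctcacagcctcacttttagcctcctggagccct
Ceacam10: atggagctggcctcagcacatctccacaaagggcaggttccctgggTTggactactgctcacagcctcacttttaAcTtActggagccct
Over the aligned coding sequence, Ceacam2 matched Ceacam1 at 1411 of 1560 bases (90.4%), and the longest run without a difference was 319 bases. Ceacam10, with a coding length of 795 bases against 1563 for Ceacam1, matched it at 551 of 748 aligned bases (73.7%), with a longest shared run of 46 bases at the start. Counted over all annotated transcripts, 56.5% of the 31-base stretches of Ceacam2 also occur in Ceacam1 and 36.2% of those of Ceacam1 occur in Ceacam2. For Ceacam10 4.69% occur in Ceacam1 and 2.51% in Ceacam2. Ceacam12, Ceacam18 and Ceacam20 share 8.18%, 0.62% and 3.68% of their stretches with any other gene. Ceacam2 values are therefore uncertain, whereas Ceacam10 has mostly sequence of its own.

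The sequences before the starts of Ceacam1 and Ceacam10 are also alike, although the levels of the transcripts are not. RefSeq promoter windows, 250 bases before to 50 after the start, were available for all 6 genes. For Ceacam1 and Ceacam2 the first listed start was taken. Of the listed starts of Ceacam10, the start whose window aligned with that of Ceacam1 over the most bases was taken. The windows of Ceacam1 (chr7:25477576-25477875, minus strand) and Ceacam10 (chr7:24776917-24777216, plus strand) are shown in GRCm38.p6 coordinates, matched by symbol. The deposited table uses an earlier build, and its own coordinates were not used. Capitals mark bases that differ between the 2 windows within their aligned part.
Ceacam1 promoter: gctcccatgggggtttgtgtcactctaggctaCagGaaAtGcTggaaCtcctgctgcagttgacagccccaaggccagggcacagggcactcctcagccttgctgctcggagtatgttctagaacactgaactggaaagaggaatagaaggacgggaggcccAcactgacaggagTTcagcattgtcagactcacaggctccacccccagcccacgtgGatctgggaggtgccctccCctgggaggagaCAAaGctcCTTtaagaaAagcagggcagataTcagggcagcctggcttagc
Ceacam10 promoter: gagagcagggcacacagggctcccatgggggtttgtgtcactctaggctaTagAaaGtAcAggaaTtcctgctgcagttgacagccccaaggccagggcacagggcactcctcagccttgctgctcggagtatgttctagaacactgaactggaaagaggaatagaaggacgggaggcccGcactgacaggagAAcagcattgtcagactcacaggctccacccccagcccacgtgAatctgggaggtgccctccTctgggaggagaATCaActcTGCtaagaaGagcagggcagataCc
These windows matched at 262 of 282 aligned bases (92.9%), against 131 of 158 (82.9%) for Ceacam1 and Ceacam2. The Ceacam10 window was picked for its alignment to Ceacam1 and the Ceacam2 window was not, so these shares are not on equal terms. The Ceacam1 and Ceacam10 windows each hold the E-box letters CACGTG once, and the Ceacam2 window lacks them. This motif reads the same on both strands and is present in 7.15% of 32851 RefSeq promoter windows. The core of the interferon-stimulated response element (3.44% of windows) and the GC box GGGCGG (35.7%), searched on both strands, were found in none of these 3 windows. Letter matches describe these windows and say nothing of binding.

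Total expected counts per library ran from 16388852 to 16903559. Epithelial markers were abundant in all libraries, and the 4 surface mucous cell markers summed to 341000 to 387000 TPM (transcript abundance scaled to length and library) in the PEEPA-P5 group and 293000 to 337000 TPM in the vehicle group. Gast, which encodes the antral hormone gastrin, was detected in all 6 libraries, at 199 TPM or more. Vehicle 3 stood apart by its chief cell markers, at a summed 68600 TPM against 8370 and 23000 TPM in vehicle 1 and 2, and PEEPA-P5 3 by low sums of the fibroblast, smooth muscle and enteroendocrine lists. In bulk tissue, fewer cells of a type and less RNA per cell cannot be told apart. Over 13071 genes that passed edgeR's expression filter, edgeR's quasi-likelihood test with Benjamini-Hochberg adjustment called 0 genes (0%) between the groups. At an unadjusted p under 0.05 it had 774 higher (5.92%) and 802 lower (6.14%), 12.1% together. DESeq2 called 101 genes.

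Ceacam1 (Entrez 26365) was the only member expressed at a high level, above 88.3% of all genes by mean TPM. It was at 43.9, 47.2 and 45.1 TPM in PEEPA-P5 1, 2 and 3, and at 43.7, 38.3 and 12.9 TPM in vehicle 1, 2 and 3. The PEEPA-P5 libraries lay close together, vehicle 1 lay just below the lowest of them, and vehicle 3 stood far below all others. The group means were 45.4 ± 1.71 TPM with PEEPA-P5 and 31.6 ± 16.4 TPM with vehicle (SD, n = 3 each), and the fitted log2 difference in counts was 0.65 with a standard error of 0.38. Vehicle 3 decides its size, since the log2 difference was 0.31 ± 0.15 (SE) without that library and 1.00 ± 0.37 without vehicle 1. The groups were just separate on these scales, but in unscaled counts PEEPA-P5 1, at 2359.59, lay below vehicle 1, at 2455.56. The table has 1 row per gene, so the long-tailed and short-tailed Ceacam1 isoforms could not be distinguished.

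Ceacam2 (Entrez 26367) was near the limit of detection. Its expected counts were 1.41, 1.97 and 0 in PEEPA-P5 1, 2 and 3, and 2.44, 6.94 and 4.7 in vehicle 1, 2 and 3. Every PEEPA-P5 library was below every vehicle library, but all the PEEPA-P5 values, and that of vehicle 1, were within the 3 counts that a count of 0 allows. The fractional parts come from reads divided with Ceacam1: the summed expected counts of both genes were 2361, 2637 and 2547 in the PEEPA-P5 libraries and 2458, 2052 and 710 in the vehicle libraries, whole numbers in 6 of 6 within 0.01. Ceacam2 took 0.0597%, 0.0747% and 0% of that sum in the PEEPA-P5 libraries, against 0.0993%, 0.338% and 0.662% in the vehicle libraries. No fold change is given for Ceacam2, because it did not pass the expression filter and its share of the divided reads is an estimate. Summing both genes left the Ceacam1 log2 difference at 0.65 ± 0.38 (SE).

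Ceacam10 (Entrez 26366), the secreted member, stood lower with PEEPA-P5. It had 19, 29 and 19 counts in PEEPA-P5 1, 2 and 3, and 56, 103 and 85 counts in vehicle 1, 2 and 3, all whole numbers. Every PEEPA-P5 library was below every vehicle library, and the nearest pair was PEEPA-P5 2 and vehicle 1. Exact Poisson 95% intervals were 19.4 to 41.6 counts for PEEPA-P5 2 and 42.3 to 72.7 counts for vehicle 1, and they cover counting error within a library, not the spread between libraries. Per transcript length, Ceacam10 was at 1.98, 2.74 and 1.95 TPM in the PEEPA-P5 libraries and at 4.72, 8.73 and 7.72 TPM in the vehicle libraries. The log2 difference was -1.78 with a standard error of 0.35, a level 3.44-fold lower with PEEPA-P5, and it stayed between -1.99 and -1.65 when each library was left out in turn. Ceacam10 was chosen with these values known, so they are not independent support of its direction.

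**Figure D1:**
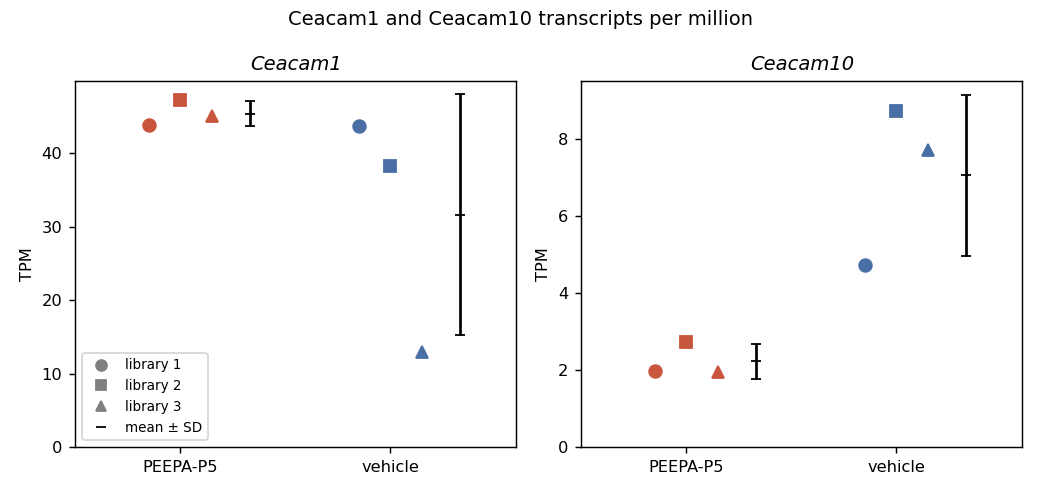
Levels in TPM (linear axis from 0) of Ceacam1 and Ceacam10 in each library, with the mean ± SD of 3 libraries per group beside the points. Ceacam1 was at 43.9 to 47.2 TPM with PEEPA-P5, and vehicle 3 alone was at 12.9 TPM, whereas for Ceacam10 the 3 PEEPA-P5 libraries, at 1.95 to 2.74 TPM, were below the vehicle libraries at 4.72 to 8.73 TPM.

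**Figure D2:**
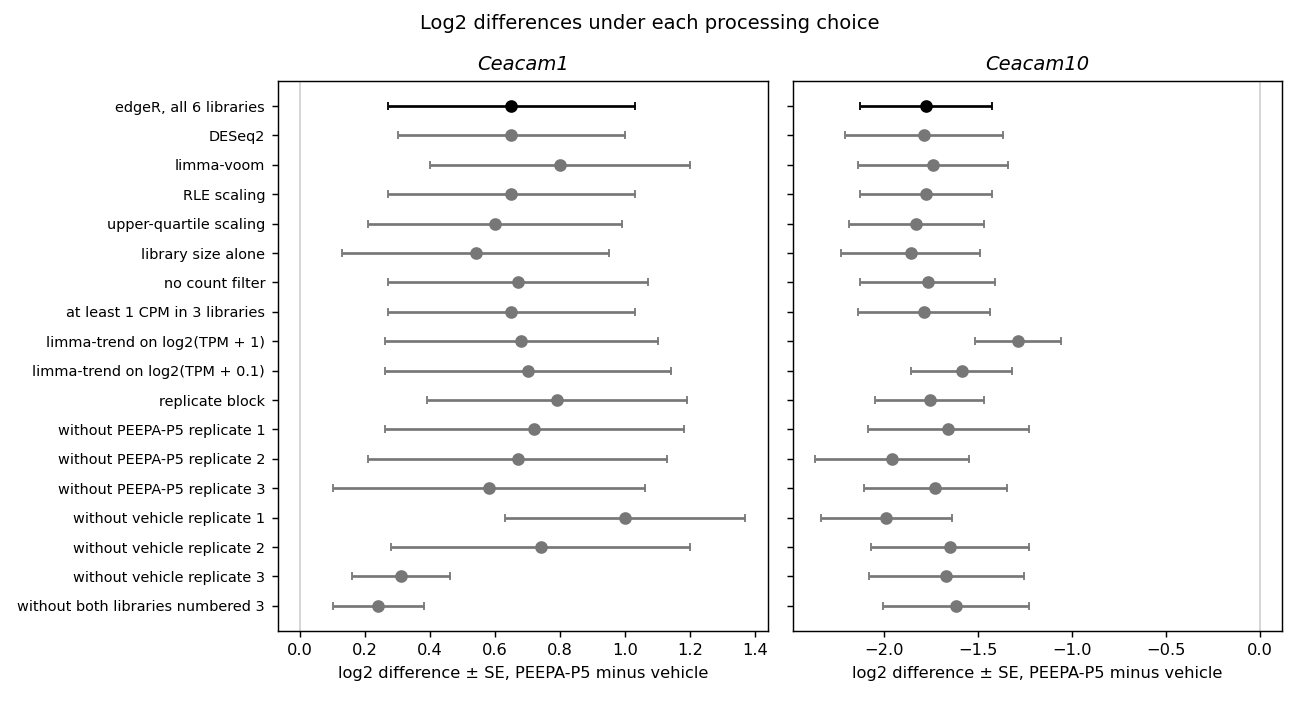
Log2 difference (PEEPA-P5 minus vehicle, horizontal axis) with its standard error for Ceacam1 and Ceacam10 under each processing choice, with the fit to all 6 libraries at the top in black. Ceacam10 stays between -1.99 and -1.29, and Ceacam1 is at 0.31 without vehicle 3 and 0.24 without both libraries numbered 3.

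Ceacam12 (Entrez 67315), one of the family members described from mouse placenta, was low in all libraries. It had 8, 5 and 16 counts in PEEPA-P5 1, 2 and 3, and 7, 4 and 4 counts in vehicle 1, 2 and 3. PEEPA-P5 3 held the highest value, and the groups overlapped. Ceacam18 (Entrez 72431) had 2, 1 and 0 counts in the PEEPA-P5 libraries and 0, 1 and 1 counts in the vehicle libraries. Ceacam20 (Entrez 71601), the microvillus protein, had 1, 0 and 1 counts in the PEEPA-P5 libraries and 0 in each vehicle library. At this depth 3 counts, the limit that a count of 0 allows, correspond to 0.162 to 0.202 CPM (counts scaled to library size), so a difference in Ceacam18 or Ceacam20 was not detectable.

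**Figure D3:**
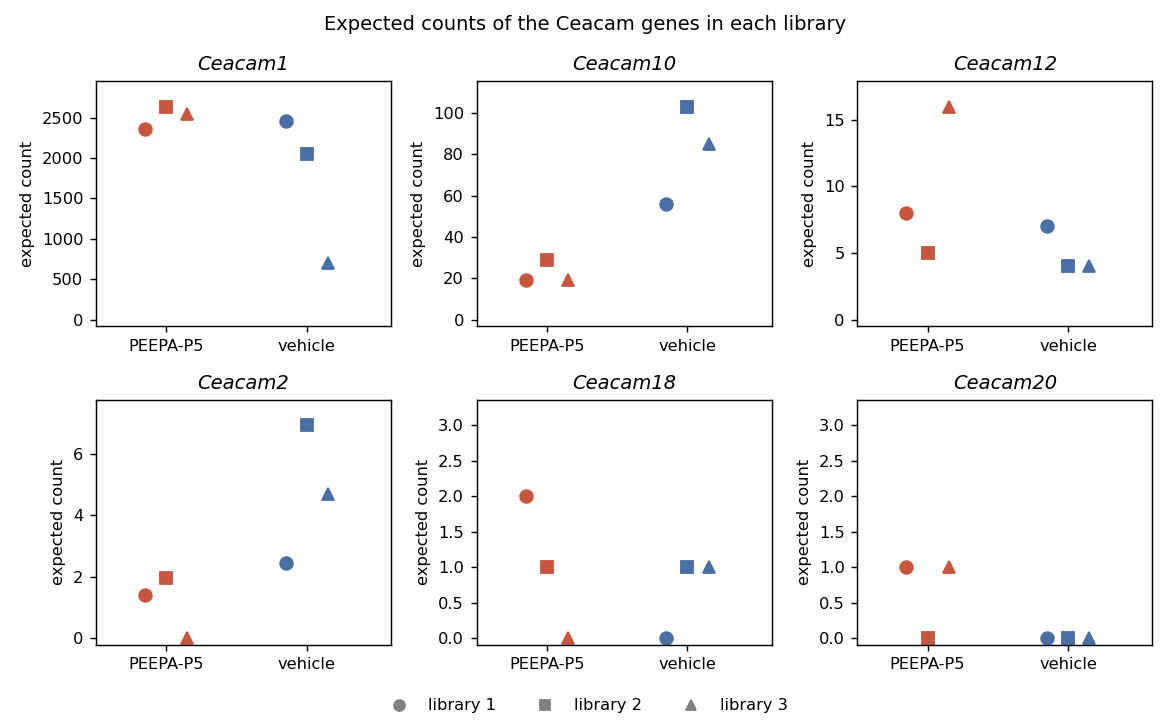
Expected counts (linear axes, each with its own range) of the 6 Ceacam genes in the PEEPA-P5 and vehicle libraries, with a symbol for each library number. Ceacam1 reaches 2635.03 counts and Ceacam10 reaches 103, whereas Ceacam2, Ceacam18 and Ceacam20 stay at or below 6.94, 2 and 1 counts.

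By level per length, the members kept 1 order in which the upper 3 did not touch. The lowest Ceacam1 library, at 12.9 TPM, exceeded the highest Ceacam10 library, at 8.73 TPM. The lowest Ceacam10 library, at 1.95 TPM, exceeded the highest Ceacam12 library, at 1.16 TPM, and the lowest Ceacam12 library, at 0.26 TPM, exceeded the highest Ceacam2 library, at 0.14 TPM. Ceacam2, Ceacam18 and Ceacam20 overlapped one another, with highest values of 0.14, 0.10 and 0.03 TPM.

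Of the 6 members, 2 passed the expression filter, Ceacam1 and Ceacam10, both with 19 or more counts in every library. Neither was called by edgeR's adjusted test, where 0% of tested genes were, or by limma-voom. DESeq2 called Ceacam10 and not Ceacam1, among 101 genes (0.773% of those tested). Groups did not overlap in CPM for either of them, Ceacam1 higher and Ceacam10 lower, and this was so for 9.74% (higher), 10.7% (lower) and 20.4% (either direction) of all tested genes. These counts describe genes chosen on this comparison, and nothing is read from them.

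Ratios within a library set the members against other epithelial transcripts. Relative to Epcam, a general epithelial surface protein, Ceacam1 stood at 30.6%, 30.1% and 33.5% of its TPM in PEEPA-P5 1, 2 and 3, and at 31.2%, 26.5% and 13.8% in vehicle 1, 2 and 3. Vehicle 3 was lowest in the ratio to Epcam, and the other 5 libraries lay between 26.5% and 33.5%. Epcam itself was at 143, 157 and 135 TPM in the PEEPA-P5 libraries and at 140, 144 and 93.35 TPM in the vehicle libraries. Relative to Vil1, which encodes the microvillus protein villin, Ceacam1 stood at 33.9%, 38.5% and 40.2% in the PEEPA-P5 libraries and at 35.6%, 33.1% and 39.5% in the vehicle libraries. The groups overlapped in this ratio and vehicle 3 lay inside the range of the others. Vil1 itself was at 129, 123 and 112 TPM with PEEPA-P5 and at 123, 115 and 32.7 TPM in vehicle 1, 2 and 3, and was chosen as a denominator after its values had been seen. Ceacam10 relative to Ceacam1 was 4.51%, 5.80% and 4.32% in the PEEPA-P5 libraries, against 10.8%, 22.8% and 59.8% in the vehicle libraries. The groups were separate in this last ratio, and vehicle 3, low in Ceacam1, held the highest. Every PEEPA-P5 library was above every vehicle library in Ceacam1 TPM and below in Ceacam10 TPM. The separation of the ratio follows from those values, and nothing is read from it.

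**Figure D4:**
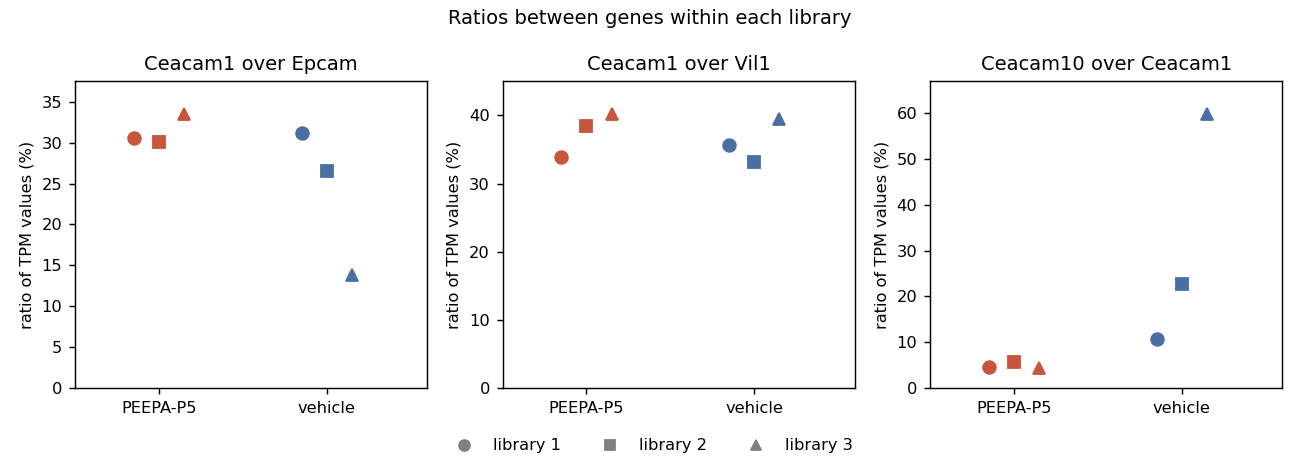
Ratio of TPM values within each library, in percent on linear axes from 0, for Ceacam1 over Epcam, Ceacam1 over Vil1 and Ceacam10 over Ceacam1, with a symbol for each library number. Vehicle 3 is at 13.8% for Ceacam1 over Epcam but at 39.5% for Ceacam1 over Vil1, where the other libraries lie between 33.1% and 40.2%.

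The genes with the pattern most like that of each tested member were sought among 12367 genes with a mean of at least 1 CPM, by Pearson's r of log2 CPM over the 6 libraries. The 6 points share their groups and libraries, and the values are given as a description. For Ceacam1 these were Actn4, which encodes an actin-binding alpha-actinin (r = 0.999), the membrane lipid flippase gene Atp8a1 (r = 0.995) and the zinc finger gene Zfp772 (r = 0.991). Actn4 was at 252, 266 and 233 TPM in the PEEPA-P5 libraries and at 264, 278 and 179 TPM in the vehicle libraries. Its groups overlapped. Atp8a1 was at 10.1, 10.3 and 9.16 TPM in the PEEPA-P5 libraries and at 9.62, 9.16 and 3.99 TPM in the vehicle libraries. Both genes were lowest in vehicle 3, like Ceacam1. They were picked for their likeness to Ceacam1, so this follows from the search and nothing is read from it. For Ceacam10 they were Kmt2e, which encodes a chromatin protein of the lysine methyltransferase family (r = 0.994), the calpain-family gene Capn6 (r = 0.994) and L3hypdh, which encodes a hydroxyproline dehydratase (r = 0.990). Capn6 was at 2.51, 3.06 and 2.29 TPM with PEEPA-P5 and at 4.64, 6.14 and 5.27 TPM with vehicle. It was picked for its likeness to Ceacam10, so the separation of its groups follows from the search and nothing is read from it.

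Genes that act with Ceacam1 or Ceacam20 were described from 4 lists. None of their tested members was called by edgeR, by limma-voom or by DESeq2. Of 24 tested Ceacam1 partners and signalling genes, 3 were higher and 0 lower at an unadjusted p under 0.05, beside 5.92% and 6.14% of all tested genes, with a median log2 difference of 0.11 beside -0.0047 over all tested genes. The 3 became 5 without vehicle 1, 1 without vehicle 2, and 0 when scaled by library size alone. The phosphatase genes Ptpn6 and Ptpn11 were not among the 3. Anxa2, a membrane-binding annexin, was at 632 ± 30.7 TPM with PEEPA-P5 and 471 ± 144 TPM with vehicle (SD, n = 3 each), with an edgeR adjusted p of 0.412. Egfr, the epidermal growth factor receptor, was at 13.6 ± 1.57 TPM with PEEPA-P5 and 10.9 ± 2.58 TPM with vehicle, and the kinase gene Src at 32.1 ± 2.24 TPM with PEEPA-P5 and 27.9 ± 4.08 TPM with vehicle. In all 3 genes vehicle 3 was the lowest library. The abundant member Tpm1, a tropomyosin, was at 713 ± 9.62 TPM with PEEPA-P5 and 671 ± 111 TPM with vehicle.

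The list of Ceacam20 partners and microvillus proteins had 4 of 15 tested members higher and 0 lower at an unadjusted p under 0.05, beside 5.92% and 6.14% of all tested genes, with a median log2 difference of 0.37. The count was 2 without vehicle 2 or without vehicle 3, 6 without vehicle 1, and 1 when scaled by library size alone or with limma-trend on TPM. The 4 were the microvillus scaffold gene Anks4b, the actin regulator Eps8, the kinase gene Syk, which binds phosphorylated Ceacam20, and Src, which also stands in the list of Ceacam1 partners. Anks4b was at 21.5, 23.2 and 27.9 TPM in the PEEPA-P5 libraries and at 19.7, 16.9 and 9.87 TPM in the vehicle libraries. Its fitted log2 difference was 0.78 ± 0.24 (SE), at an edgeR adjusted p of 0.412. Its groups did not overlap, and vehicle 3 was lowest. Eps8 and Syk had log2 differences of 0.43 and 0.37 at the same edgeR adjusted p of 0.412. The abundant members Ezr, which encodes ezrin, and Pls1, an actin bundler, were at 501 ± 66.2 and 111 ± 2.67 TPM with PEEPA-P5, against 483 ± 45.7 and 104 ± 12.6 TPM with vehicle. Ezr had no steady direction, as its log2 difference was 0.15 over all libraries and -0.01 without PEEPA-P5 3. The 15 tested transcripts of this list were present while Ceacam20 itself had at most 1 count in any library. Pdzk1, also in the list, did not pass the expression filter.

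Of 13 regulators of Ceacam1 transcription and splicing, 1 was higher and 0 lower at an unadjusted p under 0.05, beside 5.92% and 6.14% of all tested genes, with a median log2 difference of 0.02. The count was 0 without PEEPA-P5 1, without vehicle 2 or without vehicle 3, and 2 without vehicle 1. The 1 gene was Pparg, a lipid-sensing nuclear receptor, at 137 ± 17.7 TPM with PEEPA-P5 and 112 ± 25.4 TPM with vehicle (edgeR adjusted p 0.412). The splicing factor genes Hnrnpl and Hnrnpa1, known from human cells to act on the choice of the Ceacam1 tail, were at 78.2 ± 13.3 and 64.3 ± 20.9 TPM with PEEPA-P5, against 79.0 ± 20.3 and 80.9 ± 25.3 TPM with vehicle, less apart than their spread. Of 25 tested adhesion proteins of the immunoglobulin superfamily outside the Ceacam family, 0 were higher and 1 lower at an unadjusted p under 0.05, beside the same 5.92% and 6.14%, and the median log2 difference was -0.01. The count in either direction was 5 without PEEPA-P5 2, 2 without vehicle 1 and 0 without vehicle 3. The 1 gene over all libraries was Icam1, a leukocyte-binding adhesion receptor, at 0.53, 0.79 and 0.15 TPM in the PEEPA-P5 libraries and at 1.08, 1.93 and 1.16 TPM in the vehicle libraries (edgeR adjusted p 0.412). The epithelial members Vsig1, Vsig2 and Bsg, all abundant, had log2 differences of -0.01, 0.23 and 0.26. The number of distinct members of the 4 lists at an unadjusted p under 0.05 was 8 in all, and 4 without vehicle 2 or without vehicle 3, 14 without vehicle 1 and 3 when scaled by library size alone.

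**Figure D5:**
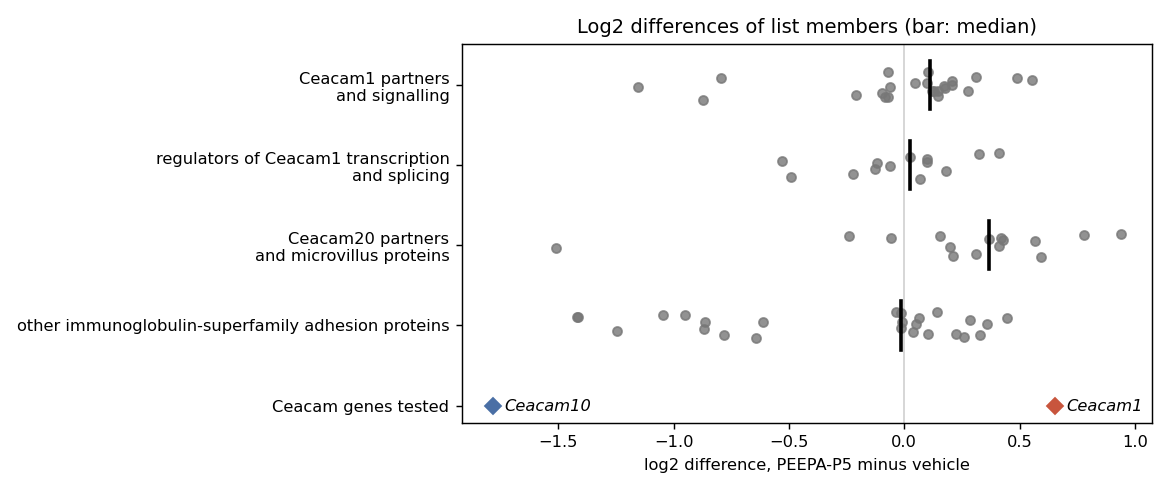
Log2 difference (PEEPA-P5 minus vehicle) of each tested member of the 4 gene lists, with a bar at the median, and of Ceacam1 and Ceacam10 in the lowest row. The medians are 0.11, 0.02, 0.37 and -0.01 from top to bottom, and Ceacam10, which was chosen with its value known, is at -1.78.

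Markers of other cell types moved with the members in several libraries, and their part in the values of Ceacam1 and Ceacam10 was not tested. At an unadjusted p under 0.05, 5.92% of all tested genes were higher and 6.14% lower. None of the markers was called by edgeR's adjusted test. The 5 general epithelial markers, all higher and 3 of them at an unadjusted p under 0.05, summed to 13500 to 14000 TPM with PEEPA-P5 and 9090 to 12900 TPM with vehicle, lowest in vehicle 3 like Ceacam1. The list of 7 intestinal markers, which holds Vil1, summed to 1460 to 1560 TPM with PEEPA-P5 and 818 to 1410 TPM with vehicle, again lowest in vehicle 3. Of its 6 tested members 5 were higher and 1 lower, with 0 higher and 1 lower at an unadjusted p under 0.05. The sum therefore does not describe every member, and Cdx1, a defining gene, did not exceed 3 counts. Beside Ceacam10, the 5 parietal cell markers, all lower and 3 of them at an unadjusted p under 0.05, summed to 1.24 to 359 TPM with PEEPA-P5 and 378 to 3290 TPM with vehicle. PEEPA-P5 2 and vehicle 1, the nearest libraries in Ceacam10, were also the nearest in this list. The highest library was vehicle 3 in this list, at 3290 TPM, and vehicle 2 in Ceacam10, at 8.73 TPM. All 4 chief cell markers were lower at an unadjusted p under 0.05, with sums of 2080 to 8910 TPM with PEEPA-P5 and 8370 to 68600 TPM with vehicle, which overlapped. The 6 granulocyte markers, none of which passed the expression filter, summed to 0.12 to 0.28 TPM with PEEPA-P5 and 1.31 to 3.31 TPM with vehicle, with Ly6g, Cxcr2 and Mpo at no more than 3 counts in any library. The 6 T cell markers were likewise untested and summed to 0.16 to 0.47 TPM with PEEPA-P5 and 0.48 to 0.91 TPM with vehicle, with Cd3e, Cd3d and Cd2 at no more than 3 counts. The 8 endothelial markers, all lower, summed to 5.92 to 21.3 TPM with PEEPA-P5 and 19.4 to 30.8 TPM with vehicle, and these sums overlapped. Epcam itself was higher with PEEPA-P5, at a log2 difference of 0.32 ± 0.13 (SE). Relative to Epcam, Ceacam10 stood at 1.38%, 1.74% and 1.45% with PEEPA-P5 and at 3.36%, 6.05% and 8.27% with vehicle, where the groups did not overlap. Relative to the endothelial gene Pecam1 it stood at 51.3%, 57.9% and 164% with PEEPA-P5 and at 99.6%, 99.9% and 162% with vehicle, where the groups overlapped.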

How the data were processed

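RNA-seq was made from antrum epithelium of 6 samples, 3 per group. Per the submitters' processing notes, the authors' tools were RSEM 1.2.12 and Bowtie2 2.2.5, with mm9 as genome build. Their settings are not stated in the labels. The deposited table holds, per the file headers, an expected count (an RSEM estimate of reads per gene, not normalized), a TPM value (scaled to a fixed sum per library and to transcript length) and an FPKM value for each gene. The deposited FPKM values and the authors' group means were not used. No label states whether strand was kept.

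Of the expected counts, 9.82% were not whole, and all were rounded for testing with edgeR 4.0.16 (R 4.3.3, TMM factors, robust quasi-likelihood, Benjamini-Hochberg at 0.05). The test was also run on simulated counts with the same dispersion for all genes and no outlying library. That run does not show the power or error rate of the test on these libraries. CPM uses the TMM-scaled library sizes. The members and gene lists were chosen with earlier results of these data known. Named list genes are the 3 with the highest mean TPM and up to 4 with the smallest unadjusted p under 0.05. One gene that this rule names is not reported here. In a chi-square comparison of counts, the 2 most alike libraries had 13.3 per degree of freedom, so none was treated as a duplicate. Reads carry no molecular identifiers, so counting limits cover counting error only.

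Sequences are from RefSeq (GRCm38.p6) and GENCODE M21, aligned with Biopython 1.88. The coding windows are the longest annotated coding sequence per gene. Amino acid sequences were not used here.

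Libraries numbered alike deviated together from their group means, with r = 0.237 (number 1), 0.346 (number 2) and 0.235 (number 3), each above 0.1, so the numbers were taken as possible pairs. No label gives this pairing, and PEEPA-P5 1 and vehicle 2 also correlated at 0.176. The deviations of the 3 libraries of a group sum to 0, which ties these r values together. They therefore cannot decide whether the libraries were paired. The fits above take the libraries as unpaired. Alternatives were DESeq2 1.42.0, limma 3.58.1 (voom, and trend on log2 TPM after adding 1 or 0.1), other scalings and filters, a replicate block, each library left out, and, added after the data had been seen, both libraries numbered 3 left out.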

Additional observations from a re-analysis of the deposited data

How the results depend on the processing

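Of the alternatives, DESeq2 called 101 genes (39 higher and 62 lower) in place of 0, Ceacam10 among them, which no other alternative called. Ceacam10 was chosen with its values known, so nothing is read from that call. Leaving out 1 library called between 0 and 1 gene, the 1 being the predicted gene Gm42048 without vehicle 1, named after its values were seen. The genes at an unadjusted p under 0.05 numbered 1576, and between 717 (without vehicle 2) and 2070 (without vehicle 1) with 1 library left out, with 759 without vehicle 3 and 1008 without PEEPA-P5 1. The distinct list members at that level numbered 8, with 3 under library size alone, 4 with limma-trend on log2(TPM + 0.1), and between 4 and 14 with 1 library left out. Ceacam10 stood at -1.29 with limma-trend on log2(TPM + 1), where the pseudocount shrinks low genes, and at -1.99 to -1.65 with 1 library left out. Ceacam1 stood at 0.31 to 1.00 with 1 library left out and at 0.24 without both libraries numbered 3. With the replicate block, edgeR called 0 genes, 1788 were at an unadjusted p under 0.05, and Ceacam1 and Ceacam10 stood at 0.79 and -1.76, so the pairing changed no adjusted call, and the count of immunoglobulin superfamily members at an unadjusted p under 0.05 was 2 in place of 1. Signs turned for 3 named list genes near 0: Hnrnpl at -0.03 without vehicle 3 (range -0.03 to 0.18 with 1 library left out), Ezr at -0.01 without PEEPA-P5 3 (-0.01 to 0.32), and Vsig1 at 0.01 with no count filter, 0.07 without PEEPA-P5 1, 0.06 without PEEPA-P5 2, 0.02 without vehicle 2 and 0.03 without vehicle 3 (-0.16 to 0.07). The cause was not tested. Depth limits Ceacam2, Ceacam12, Ceacam18 and Ceacam20, whose highest counts were 6.94, 16, 2 and 1.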

Other observations

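The table holds 10 further rows of the family, Ceacam or Psg by symbol, of which 3 passed the expression filter, which were picked for mention with their values known. Psg16, a pregnancy-specific glycoprotein gene, had the highest level of them, at 6.70, 8.20 and 7.44 TPM in PEEPA-P5 1, 2 and 3 and at 6.79, 7.14 and 6.37 TPM in vehicle 1, 2 and 3. Its groups overlapped. Ceacam9 had 15, 14 and 29 counts in the PEEPA-P5 libraries and 15, 9 and 15 counts in the vehicle libraries, highest in PEEPA-P5 3 like Ceacam12. Psg23 had 13, 9 and 3 counts with PEEPA-P5 and 13, 12 and 7 counts with vehicle. The other 7 rows had at most 4 counts in any library.

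The tested genes next to Ceacam10 and Ceacam1 on chromosome 7, 3 on each side in the RefSeq order, were looked up after the data had been seen. Cd177, which encodes a neutrophil surface glycoprotein and is the nearest tested neighbour on one side of Ceacam10, had 12, 19 and 22 counts in the PEEPA-P5 libraries and 50, 98 and 78 counts in the vehicle libraries. Its groups did not overlap and its log2 difference was -1.99 with a standard error of 0.41, with an edgeR adjusted p of 0.412. Rps19, a ribosomal protein gene and the nearest tested neighbour on the other side, had a log2 difference of 0.02. Lypd3, one gene further on the Cd177 side, stood the other way, at 2.11, 4.26 and 1.06 TPM with PEEPA-P5 and 0.77, 0.85 and 0.73 TPM with vehicle. Beside Ceacam1, the chemokine gene Cxcl17 was at 119, 131 and 111 TPM with PEEPA-P5 and at 172, 162 and 238 TPM with vehicle, with no overlap and in the direction opposite to Ceacam1. Bckdha, a subunit of branched-chain keto acid breakdown, was at 20.2, 20.3 and 14.5 TPM with PEEPA-P5 and at 27.5, 47.8 and 59.6 TPM with vehicle. No gene of these neighbourhoods passed edgeR's adjusted threshold.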
